A study of Mus musculus with 55 samples.

Results

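Knockout pyramidal neurons of the mouse prefrontal cortex labelled D1 were set against those labelled D2, to ask how the transcriptomes of the 2 kinds of cell differ when Fmr1 is lost. The members were chosen by their labels alone, which gave the knockout genotype, the kind of cell and a passed quality control. They were 6 D1 cells and 7 D2 cells, 13 of the 55 samples of the series. Each sample was the cytosol of 1 neuron, drawn into a patch pipette and sequenced as its own library. The 6 D1 cells came from Fmr1-/y mice, 1 of them aged 31 days and the other 5 aged 32 days, and the 7 D2 cells came from Fmr1-/y mice aged 32 days. Every D1 cell carried the side label 2 and every D2 cell the side label 1, and the effects of side and kind cannot be told apart. The 15 D1 and 26 D2 cells of mice without the knockout, called wild-type here, were aged 28 to 34 and 29 to 35 days and were used only to show where the knockout comparison differs. The sources used here do not give how a cell was identified as D1 or D2. The labels do not name animals, so each group was taken as 1 sample, no test was made, and every SD is a spread between cells that may share an animal.

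FMRP, the protein of Fmr1, binds messenger RNAs and restrains their translation at synapses, and its loss in males models fragile X syndrome. D1-type dopamine receptors raise cyclic AMP in the cells that carry them, and D2-type receptors lower it. Immediate early genes are transcribed within minutes of neuronal activity, without new protein synthesis, and cyclic AMP and calcium signalling both reach them through the transcription factor CREB.

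Total counts ranged from 2937937 to 9040968 per D1 cell and from 2764998 to 9680476 per D2 cell. A D1 cell held reads of 5258 to 8019 genes and a D2 cell of 2904 to 8574 genes, and D2 cell 5 stood apart with the fewest. Mitochondrial genes took 0.602 to 3.72% of the counts of D1 cells and 0.460 to 16.6% of those of D2 cells, with the highest share in D2 cell 7. The Spearman correlation of counts had a median of 0.28 over the 15 pairs of D1 cells, 0.32 over the 21 pairs of D2 cells and 0.27 over the 42 mixed pairs, so that cells of 1 kind were hardly more alike than cells of different kinds.

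Fmr1 had no read in any of the 6 D1 or 7 D2 cells. Were the cells independent, up to 45.9% of D1 and 41% of D2 cells could hold a read (exact Clopper-Pearson 95% bounds). For cells that share an animal these bounds may be too low. Among wild-type cells of each kind, some had Fmr1 reads and others had none. Of the receptor genes that name the cells, Drd1 went against the labels. Drd1, the D1 receptor gene, had no read in any D1 cell but 78.2, 29.8 and 106 CPM (counts scaled to a common total of 1000000 per cell) in D2 cells 1, 2 and 5. Its difference of -2.57 was past the fold toward D2 by the rule given below. No cell of the 13 had a read of Drd2, which encodes the D2 receptor, or of Drd3 and Drd4. Drd5 had at most 0.34 CPM in any cell. In the wild-type Drd1 went with the labels, at 59.0 ± 114 CPM in D1 cells (SD, n = 15, 4 with reads) and 5.07 ± 25.5 CPM in D2 cells (SD, n = 26, 2 with reads), a difference of 1.71. The groups are named here only as the labels name them, and an exchange of the 2 kinds among the knockout cells, which would turn every direction given here, was not tested. Slc17a7, the vesicular glutamate transporter of cortical excitatory neurons, had 324 to 669 CPM in D1 cells and 83.2 to 567 CPM in D2 cells, with reads in all 13.

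Differences are given as the mean log2(CPM + 1) of the D1 cells minus that of the D2 cells, so that a positive value is higher in D1 cells. They can exceed the log2 ratio of the mean CPM for genes that many cells of 1 kind lack. Of 22800 genes, 9158 were considered, those with a mean of at least 10 CPM in 1 group and a read in at least 1 in 3 of its cells. A gene was counted past the fold where its difference was at least 2 in size, remained at least 1 as each cell was left out, and was matched by an at least 2-fold difference of the groups' summed counts in the same direction. By this rule 1466 genes (16%) stood higher in D1 cells and 648 (7.08%) stood higher in D2 cells. The median difference over all genes considered was 0.46, and 60.4% of the genes stood above 0. The split depended on the scaling, with 1096 genes past it toward D1 and 819 toward D2 under TMM factors, where the median difference was 0.28, and 1138 and 825 in the authors' normalized table. It depended on D2 cell 5 as well, without which 1174 genes leaned to D1 and 919 to D2, at a median of 0.04, and without cells 5 and 7 together, where 1120 leaned to D1 and 1128 to D2 at a median of -0.11. A further 197 genes toward D1 and 88 toward D2 differed by at least 2 but missed another condition of the rule.

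Cells of both kinds overlapped for nearly every gene. Every D1 cell stood above every D2 cell for 12 genes (0.131% of those considered), namely Arc, Asxl1, Dhx16, Ehmt2, Exd2, Fbxl18, Fggy, Gpr22, Ikbkb, Llgl1, Mkx and Taf2. Every D2 cell stood above every D1 cell for 1 gene (0.0109%), Rps3. In wild-type cells the same fold rule counted 95 genes higher in D1 (1.21%) and 107 higher in D2 (1.36%) of 7860 considered, in larger groups of 15 and 26 cells. Only 8 genes were past the fold toward D1 in both genotypes (0.546% of the knockout and 8.42% of the wild-type genes), and 14 toward D2 (2.16% and 13.1%). Another 13 and 9 genes were past the fold in the knockout toward D1 and D2 and in the opposite direction in wild-type cells. Across the genes considered, the knockout and wild-type differences had a Pearson r of -0.01, given as a description since genes are not independent. Of the genes past the fold toward D1 in the knockout, 43.9% pointed toward D1 in wild-type cells too, against 43.5% of all genes considered.

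The immediate early genes were higher in knockout D1 cells as a group. Of 20 genes on the list, 18 were considered, and 12 of them were past the fold toward D1 and 0 toward D2, which is 66.7% against 16% of all genes. The median difference over the 18 was 2.90, against 0.37 for genes of like exon length, and it was -0.08 for the same genes in wild-type cells, where none passed the fold in either direction. The whole list summed to between 2861 and 16261 CPM in D1 cells, with a median of 7456 CPM, and to between 1040 and 4113 CPM in D2 cells, with a median of 1418 CPM. The groups overlapped, because D2 cell 3 exceeded D1 cells 2 and 3. The wild-type D1 and D2 cells had medians of 2808 and 2647 CPM, between the levels of the knockout groups.

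Arc encodes a synaptic capsid-like protein that drives AMPA receptor endocytosis (ENSMUSG00000022602, chromosome 15, 74669083 to 74672570, minus strand, GRCm38). It had 265 to 3220 CPM in D1 cells, where the 6 values were 1730, 499, 265, 1110, 448 and 3220 CPM. In the 7 D2 cells it had 0, 11.5, 240, 0, 0, 17.4 and 0 CPM. The lowest D1 cell thus stood just above the highest D2 cell, D2 cell 3, and 4 of the 7 D2 cells had no read. Arc averaged 1212 ± 1123 CPM in D1 cells (SD, n = 6) and 38.4 ± 89.1 CPM in D2 cells (SD, n = 7), a difference of 7.48 that ranged from 7.09 to 8.42 as each cell was left out. The summed counts gave 1427 CPM in D1 cells (exact Poisson 95% interval 1414 to 1440) and 29.4 CPM in D2 cells (27.8 to 31.1), 48.5-fold apart. These intervals cover counting error only, since reads were amplified without molecular identifiers. In wild-type cells Arc differed by 0.24. Cells of each wild-type kind without a read stood beside others with up to 14745 counts in D1 and 5101 counts in D2 cells.

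**Figure D1:**
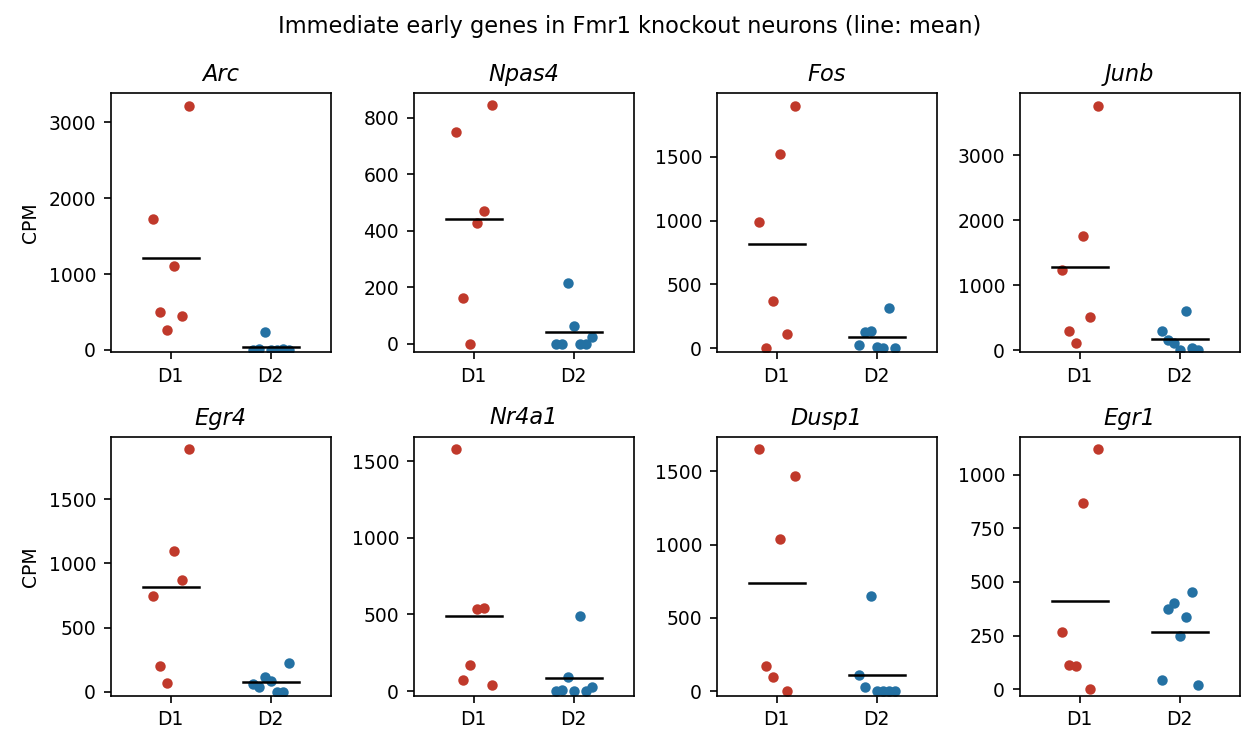
CPM of 8 immediate early genes in each knockout cell, D1 (red, 6 cells) left of D2 (blue, 7 cells), with the mean as a line and a linear axis per gene. Arc separates the groups without overlap, the next 6 genes overlap in a few cells, and Egr1 spans 1.81 to 1120 CPM in D1 and 18.8 to 451 CPM in D2 cells.

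The activity-regulated transcription factors followed in most cases. Npas4, a factor induced almost only by neuronal activity, had 0 to 843 CPM in D1 cells (median 448) and 0 to 216 CPM in D2 cells (median 0), with reads in 5 and 3 cells and a difference of 4.75. Egr4, a zinc finger factor, had 70.1 to 1890 CPM in D1 cells (median 810) and 0 to 224 CPM in D2 cells (median 62.7), a difference of 4.39. Junb, a partner of Fos in the AP-1 factor, had 114 to 3760 CPM in D1 cells (median 875) and 0 to 610 CPM in D2 cells (median 117), a difference of 4.22. In these genes the lowest D1 cells reached into the D2 range. They were cells 2 and 3 for Npas4 and Egr4, and cells 2, 3 and 5 for Junb.

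Fos itself, the defining AP-1 subunit, had 0 to 1900 CPM in D1 cells (median 680) and 0 to 318 CPM in D2 cells (median 29.4), a difference of 3.07. Nr4a1, an orphan nuclear receptor, had 40.9 to 1580 CPM in D1 cells (median 353) and 0 to 487 CPM in D2 cells (median 3.93), a difference of 4.39. Dusp1, a phosphatase that switches off MAP kinases, had 0.151 to 1650 CPM in D1 cells (median 605) and 0 to 648 CPM in D2 cells (median 2.71), a difference of 4.09. The highest D2 value belonged to cell 6 for Fos, cell 5 for Nr4a1 and cell 3 for Dusp1, and each exceeded 2 or more D1 cells. Homer1, a postsynaptic scaffold whose short form is activity-induced, had 410 to 1900 CPM in D1 cells (median 653) and 7.96 to 589 CPM in D2 cells (median 146), a difference of 2.52. Jun (3.24), Fosb (3.05), Nr4a2 (2.75) and Ier2 (2.39) were also past the fold, though only 3 D1 and 2 D2 cells had reads of Nr4a2.

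Not every member was higher in D1 cells. Egr1, a zinc finger factor widely used to mark active neurons, had 1.81 to 1120 CPM in D1 cells (median 189) and 18.8 to 451 CPM in D2 cells (median 337), a difference of -0.27. Jund (-0.18), Nr4a3 (0.18), Bdnf (0.31), Fosl2 (0.97) and Btg2 (-1.97) were also not past the fold. Egr2 and Egr3 had too few reads to be considered. Jun and Junb share 232 and 173 exon bases with genes on the opposite strand, and the sources used here do not give whether counting used strand. Microglia also express immediate early genes, and the summed level of 13 microglial markers ran from 0.453 to 2495 CPM in D1 cells and from 39.6 to 3580 CPM in D2 cells. Its highest cells in each group were D1 cell 4 and D2 cell 1, each with reads of 12 of the 13 markers. The immediate early list summed to 13421 CPM in D1 cell 4 and to 1067 CPM in D2 cell 1. The part of microglial transcripts in the immediate early difference was not tested. As each cell was left out, 11 or 12 members remained past the fold.

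The promoters of 5 of these genes are shown because the members were higher together and because the core of the cyclic AMP response element, TGACG, recurs in them. The sequences are RefSeq's for GRCm38.p6, 5′ to 3′ on the gene's strand, from 250 bases before to 50 bases after the start, with the core in capitals on either strand (TGACG or CGTCA) and the whole palindromic element TGACGTCA, which holds the core on both strands, as 1 run of capitals.
Npas4 promoter (chr19:4989922-4990221, minus strand): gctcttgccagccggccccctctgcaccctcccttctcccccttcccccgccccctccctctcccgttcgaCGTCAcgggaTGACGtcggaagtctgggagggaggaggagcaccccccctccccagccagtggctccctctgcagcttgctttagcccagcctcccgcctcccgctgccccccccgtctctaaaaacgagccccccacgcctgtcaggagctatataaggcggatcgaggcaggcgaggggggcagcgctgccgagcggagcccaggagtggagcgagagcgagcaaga
Fos promoter (chr12:85473640-85473939, plus strand): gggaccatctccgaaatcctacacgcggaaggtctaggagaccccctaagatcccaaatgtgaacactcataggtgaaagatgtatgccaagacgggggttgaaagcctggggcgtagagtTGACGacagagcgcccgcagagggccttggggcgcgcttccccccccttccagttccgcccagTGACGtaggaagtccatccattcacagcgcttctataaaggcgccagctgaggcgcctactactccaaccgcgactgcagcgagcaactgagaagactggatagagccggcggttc
Egr4 promoter (chr6:85513540-85513839, minus strand): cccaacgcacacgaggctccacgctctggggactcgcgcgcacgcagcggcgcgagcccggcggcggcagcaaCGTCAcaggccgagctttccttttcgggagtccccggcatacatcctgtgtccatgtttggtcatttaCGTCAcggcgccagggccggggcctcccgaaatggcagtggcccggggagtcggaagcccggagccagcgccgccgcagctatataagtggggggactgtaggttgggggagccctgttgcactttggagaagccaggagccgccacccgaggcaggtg
Nr4a1 promoter (chr15:101266596-101266895, plus strand): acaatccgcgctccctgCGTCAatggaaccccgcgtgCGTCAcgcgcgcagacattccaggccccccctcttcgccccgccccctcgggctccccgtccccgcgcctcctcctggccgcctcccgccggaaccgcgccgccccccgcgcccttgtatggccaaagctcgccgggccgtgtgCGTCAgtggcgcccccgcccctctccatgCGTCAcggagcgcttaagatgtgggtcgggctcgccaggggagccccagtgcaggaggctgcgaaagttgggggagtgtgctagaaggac
Dusp1 promoter (chr17:26508423-26508722, minus strand): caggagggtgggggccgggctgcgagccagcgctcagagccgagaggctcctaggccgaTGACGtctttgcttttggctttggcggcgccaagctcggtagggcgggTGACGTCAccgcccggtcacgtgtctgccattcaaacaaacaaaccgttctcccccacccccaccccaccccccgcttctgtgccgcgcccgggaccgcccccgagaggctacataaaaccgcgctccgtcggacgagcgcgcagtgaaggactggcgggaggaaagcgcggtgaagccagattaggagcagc
A window was given for 10 of the 12 members past the fold, all but Arc and Ier2. Of these 10, 9 held the core in at least 1 window, all but Jun. The same was true of 23.1% of the 27025 genes with a window, and of 4 of the 6 other list members with one. The whole element TGACGTCA stood in 1 of the 10, Dusp1, in 1 of the 6 others and in 2.03% of all genes. A CArG box, the motif of serum response factor, stood in 0 of the 10. It stood in 1 of the 6 others and in 1.81% of all genes. Sites outside the window were not sought. A match is a run of letters in this window and does not show that a factor was bound.

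The 15 genes with the most stable difference toward D1 were led by Arc and otherwise were of varied function. Llgl1, a cell polarity protein (chromosome 11, 60699723 to 60714186), had 624, 282, 148, 13.1, 189 and 363 CPM in the 6 D1 cells and no read in the 7 D2 cells. This difference of 7.43 is 3573-fold in the summed counts, against a floor of 3 counts over the D2 group. The floor covers counting error only, since reads were amplified without molecular identifiers, so that the fold is not a lower bound. Mkx, the homeobox factor Mohawk, had 89.4 to 412 CPM in D1 cells and 0 to 6.15 CPM in D2 cells, a difference of 6.90. Asxl1, a Polycomb-associated chromatin protein, had 49.4 to 656 CPM in D1 cells and a read in only 1 D2 cell, at 9.50 CPM, a difference of 7.02. In these 3 genes the groups were wide apart and did not overlap.

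Ikbkb, the kinase that activates NF-kappa-B by marking its inhibitor for degradation, had 91.2 to 522 CPM in D1 cells and reads in 2 D2 cells, at 39.9 and 0.677 CPM, a difference of 6.89. Taf2 (6.30), a subunit of the general transcription factor TFIID, and Dhx16 (6.24), an RNA helicase of the spliceosome, were likewise apart. Dusp11 (6.53), Pou2f1 (6.07), Pitpnm3 (6.08), Capn10 (5.83), Epb41l4b (5.77), Nrbp2 (5.77), Celsr3 (5.72), a cadherin that guides axons, and Mapkapk2 (5.41), a kinase downstream of p38, overlapped between the groups. Pou2f1 shares 3007 of its 16597 exon bases with Cd247 on the opposite strand, and Capn10 shares 639 of 4346. In wild-type cells 10 of the 15 pointed the other way, between -0.29 and -1.89, and 0 of the 15 were past the fold toward D1.

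**Figure D2:**
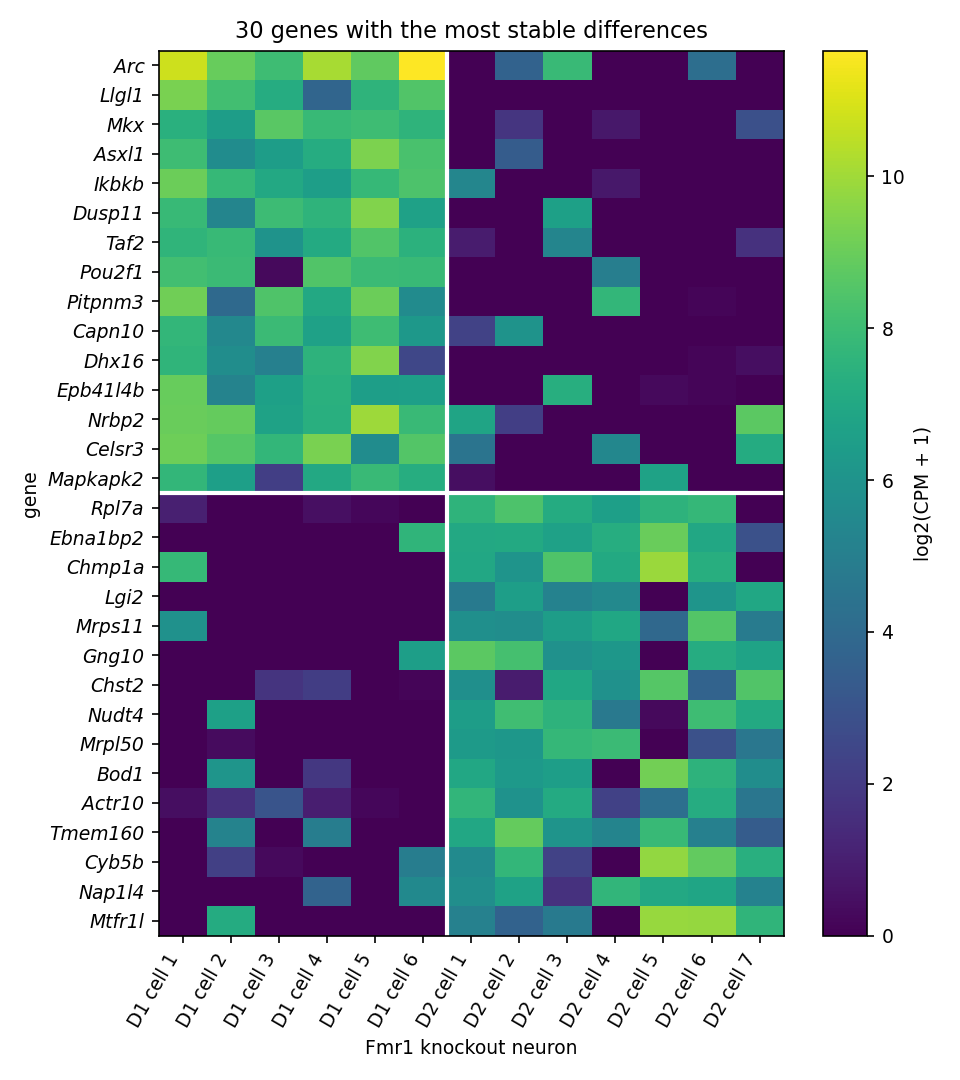
Level, as log2(CPM + 1) on the colour scale, of the 15 genes per direction with the largest smallest leave-one-out difference (upper 15 higher in D1, lower 15 higher in D2) in the 6 D1 cells left of the 7 D2 cells. Genes were chosen on these values, and dark squares outside the favoured block show that most genes had no read in most cells of the other kind.

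Toward D2 the 15 leading genes included parts of the cytosolic and the mitochondrial ribosome. Rpl7a, a protein of the large cytosolic ribosomal subunit (chromosome 2, 26910764 to 26913318), had 0 to 1.02 CPM in D1 cells and 191, 334, 144, 95.2, 185, 216 and 0 CPM in the 7 D2 cells. All D1 cells were thus near 0, and of the D2 cells only cell 7 was, a difference of -6.15. Mrps11 (-5.05) and Mrpl50 (-5.05) encode mitochondrial ribosomal proteins, and Mrps11 had 0 to 59.2 CPM in D1 cells, where only cell 1 had reads, and 14.5 to 367 CPM in D2 cells, all of which had reads. Lgi2, a secreted leucine-rich protein of the family of Lgi1, had no read in any D1 cell. It had 25.7, 91.7, 35.4, 44.4, 0, 67.1 and 122 CPM in the D2 cells, a difference of -5.00. Against the floor of 3 counts, here over the D1 group, this is 553-fold in the summed counts.

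Ebna1bp2 (-5.43), a factor of ribosome assembly, Chmp1a (-5.24), a subunit of the ESCRT-III membrane scission complex, and Gng10 (-5.05), a G protein gamma subunit, each had reads in 1 of 6 D1 cells. Gng10 shares 946 of its 1314 exon bases with Gm20503 on the same strand, so that its reads cannot be assigned with certainty. The others were Chst2 (-5.09), a sulfotransferase, Nudt4 (-4.92), Bod1 (-4.71), Cyb5b (-4.70), Mtfr1l (-4.64), Actr10 (-4.53), a dynactin subunit, Tmem160 (-4.51) and Nap1l4 (-4.31). Mrpl50 alone among the 30 leading genes was past the fold in the same direction in wild-type cells, at -2.13.

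The cytosolic ribosomal proteins were lower in D1 cells as a group. Of 82 on the list, 77 were considered, 27 of them (35.1%) were past the fold toward D2 and 0 toward D1, against 7.08% of all genes toward D2, and 70 of the 77 stood below 0. The median difference was -1.39, against -0.06 for genes of like exon length, of which 12.4% were past the fold toward D2, and it was 0.55 for the same genes in wild-type cells. The list summed to 3052 to 9726 CPM in D1 cells (median 4854) and to 3706 to 30205 CPM in D2 cells (median 10987). The 5 highest sums were those of D2 cells 2, 1, 5, 7 and 6, while D2 cells 3 and 4 lay among the D1 cells.

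Rps3, a protein of the small subunit near the messenger RNA entry site, had 5.79, 0, 65.6, 4.64, 31.1 and 89.9 CPM in D1 cells and 350, 882, 101, 145, 391, 111 and 113 CPM in D2 cells. The groups did not overlap, and the difference was -3.96, or 9.06-fold in the summed counts. Rpl8 differed by -4.06. Ribosomal protein genes have many processed pseudogene copies, among which the authors' counting could have split reads, so that their single values are uncertain. Without D2 cell 2 the number past the fold toward D2 was 15.

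Nuclear genes of the respiratory chain pointed the same way. All 75 on the list were considered, 14 (18.7%) were past the fold toward D2 and 0 toward D1, and 68 stood below 0. Their median difference was -1.19, against -0.04 for genes of like exon length, of which 12.1% were past the fold toward D2, and -0.26 in wild-type cells. Atp5o, a stalk subunit of ATP synthase, had 4.84 to 206 CPM in D1 cells (median 89.7) and 112 to 2020 CPM in D2 cells (median 336), a difference of -2.92. Ndufs8, an iron-sulfur subunit of complex I, had 0 to 674 CPM in D1 cells (median 71.3) and 101 to 591 CPM in D2 cells (median 388), a difference of -3.39. Sdhd, a membrane anchor of complex II, differed by -3.61 and Ndufb3 of complex I by -3.29. Both kinds overlapped in these genes, since 2 or more D1 cells exceeded the lowest D2 cell. Atp5o shares 702 exon bases with a gene on the opposite strand. The number past the fold was 8 without D1 cell 1, where the median was -0.77, and 23 without D2 cell 4.

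Transcripts of the mitochondrial genome itself stood lower in D1 cells too, at 12 of 12 considered and a median difference of -0.78, but none was past the fold, and genes as short had a median of -0.88. The list's median was -0.40 without D2 cell 7, -0.50 without D1 cell 3 and -1.24 without D2 cell 2. Subunits of the proteasome, which degrades ubiquitin-tagged proteins, had 6 of 32 members (18.8%) past the fold toward D2, against 9.58% for genes of like length, among them Psmb4 (-3.60), Psma6 (-3.47), Psmb5 (-3.43) and Psmb1 (-3.28), and 1 toward D1, Psmd2. The median of the list was 0.02, with 16 members above and 16 below 0, and its sign changed under 19 of 27 alternatives, TMM factors included.

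**Figure D3:**
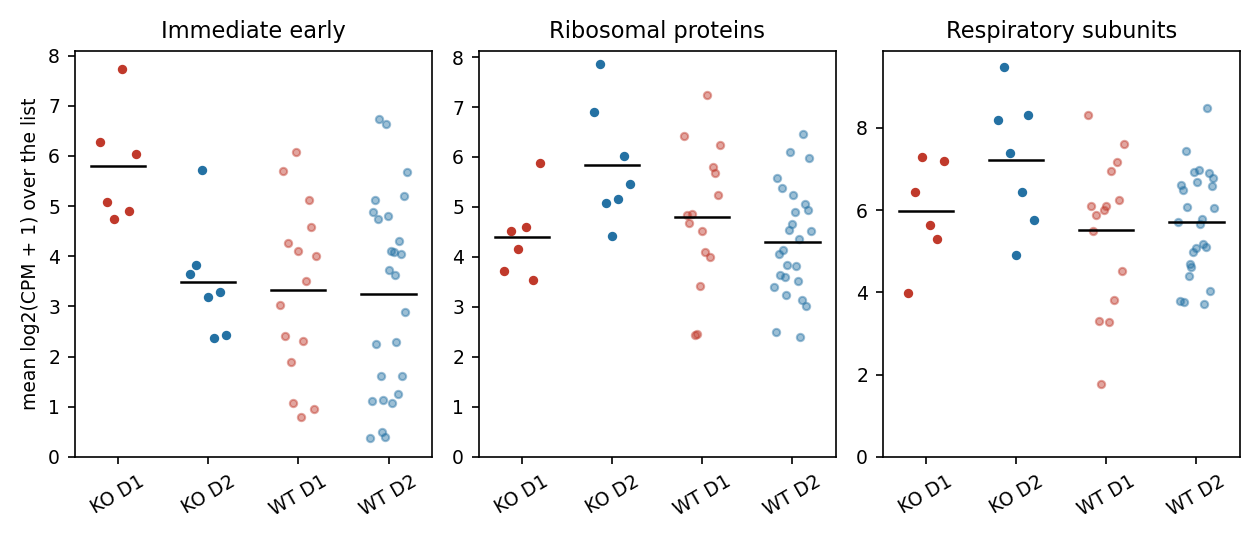
Mean log2(CPM + 1) over the members of 3 gene lists in each cell, for knockout (KO) D1, KO D2, wild-type (WT) D1 and WT D2 cells, with the group mean as a line. Knockout D1 cells lie above knockout D2 cells for immediate early genes except D2 cell 3, which exceeds 3 D1 cells; the D1 mean lies below the D2 mean for ribosomal proteins and respiratory subunits with the cells overlapping, and the WT groups overlap throughout.

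Differences tended to rise with the exon length of the genes in the knockout, though weakly across single genes. Exon length here is all annotated exon bases of a gene merged, not the length of a transcript. The median exon length was 5743 bases for genes past the fold toward D1 and 3386 bases for those toward D2, against 4879 bases for all genes considered with a length (97.3% of them). In 10 bins of equal size, the shortest genes had a median difference of -0.52, with 6.17% past the fold toward D1 and 14.4% toward D2. The longest had a median of 1.08, with 25.2% toward D1 and 2.81% toward D2. Across genes the Spearman correlation of length and difference was 0.21 in the knockout and -0.12 in wild-type cells, as a description over genes that share the same libraries. Genes under 1500 exon bases took 2.55 to 6.38% of nuclear counts in D1 cells (median 4.46%) and 2.49 to 18.7% in D2 cells (median 7.78%), and the highest shares were those of D2 cells 2, 1 and 5. Genes of at least 6000 bases took 35.9 to 49.1% in D1 cells (median 45.5%) and 18.4 to 54.2% in D2 cells (median 34.3%). The ribosomal, respiratory and mitochondrial lists hold short genes and the channel, chromatin and FMRP target lists hold long ones, and the part of length in their differences was not tested beyond the values for genes of like length.

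**Figure D4:**
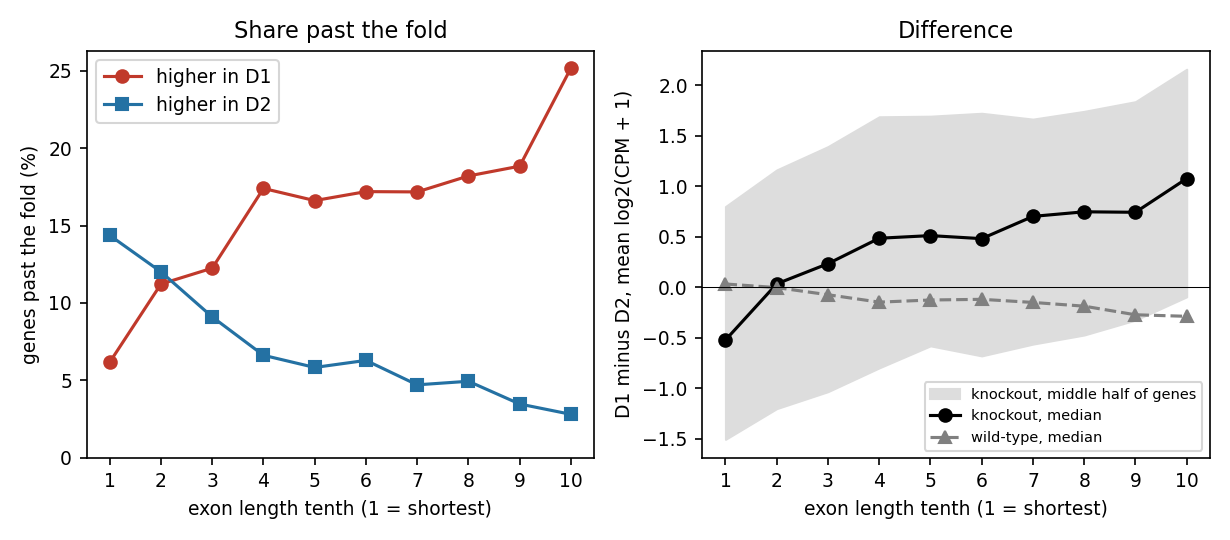
Left, share of genes past the fold in 10 bins of exon length from shortest to longest, toward D1 (red) and toward D2 (blue). Right, median difference D1 minus D2 per bin in knockout cells (black, with the middle 50% of genes in grey) and in wild-type cells (grey triangles), from -0.52 to 1.08 in the knockout and from 0.03 to -0.29 in the wild-type.

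Channel and receptor genes had shares past the fold toward D1 mostly near those of genes of like length. Of 28 sodium, HCN and calcium channel genes, 7 (25%) were past the fold toward D1 and 0 toward D2, at a median of 1.17 against 0.71 and 18.4% for genes of like length. The median was 0.67 without D2 cell 2 and 0.52 without D2 cell 5. Cacna1a, the pore of P/Q-type calcium channels, had 1.81 to 686 CPM in D1 cells (median 290) and 0 to 262 CPM in D2 cells (median 71.9), a difference of 2.42. Cacna1b (2.49) forms N-type channels, Cacnb2 (3.05) is an auxiliary subunit and Scn3a (2.35) forms a sodium channel. Of 37 potassium channel genes, 9 (24.3%) were past the fold toward D1 and 2 (5.41%), Kcnj3 and Kcnq5, toward D2, against 17.5% and 5.24% for genes of like length. Kcnf1 (3.67) and Kcnv1 (3.29), among those toward D1, encode silent subunits that form no channel alone and modify other potassium channel subunits.

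All 13 kainate and metabotropic glutamate receptor genes and their scaffolds stood above 0, and 5 (38.5%) were past the fold toward D1, at a median of 1.26 against 0.72 and 17.7% for genes of like length. The median ranged from 0.83 without D2 cell 6 to 2.30 without D1 cell 3. Grm2, a presynaptic inhibitory receptor, had 888, 61.9, 0, 978, 309 and 0 CPM in D1 cells and no read in any D2 cell. Its difference of 5.66 is 4332-fold in the summed counts against the floor of 3 counts over the D2 group, and it is carried by 4 of the 6 D1 cells. Grm7 (3.79), Homer2 (2.99) and Grm8 (2.58) were also past the fold, and Homer1 is counted in this list and among the immediate early genes. Of 10 AMPA and NMDA receptor genes only Gria4 (3.15) was past the fold (10% against 19% for genes of like length), while 9 of the 10 stood above 0. Of 12 GABA receptor genes, 2 (16.7%) were past the fold toward D1, one of them Gabra4 (2.14), against 17.2% for genes of like length.

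Messenger RNAs known as FMRP targets were past the fold toward D1 no more often than genes of like length, and the part of FMRP binding was not tested. Of 53 considered, 9 (17%) were past the fold toward D1 and 0 toward D2, against 22.2% and 3.12% for genes of like length, at medians of 1.08 and 0.93, and the targets' median was 0.70 without D2 cell 2. Among them were Arc, Kmt2a (2.76), Cacna1a, Map2 (2.46), Herc2, Dync1h1, Lrp1 and Herc1. Chromatin modifiers had 16 of 69 (23.2%) past the fold toward D1 and 0 toward D2, against 19.3% for genes of like length. Ehmt2, which places methyl groups on histone H3 lysine 9, had 138 to 650 CPM in D1 cells (median 201) and 0 to 96.2 CPM in D2 cells (median 22.4), a difference of 4.01 without overlap. Its partner Ehmt1 differed by 5.38, the deacetylase Hdac5 by 4.60 and the demethylase Kdm5c by 3.70. In the mTOR, PI3K and ERK pathways, 8 of 37 (21.6%) were past the fold toward D1, against 17.9% for genes of like length, among them Rptor (3.66), Mknk2 (3.18) and Pik3ca (2.90), and Hras was past it toward D2. Of 55 splicing factors, 9 (16.4%) were past the fold toward D1, led by Srsf5 (3.96) and including Srsf1 (3.13), Mbnl1 (3.15) and Hnrnpa1 (2.96), which is near the background of 16%.

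**Figure D5:**
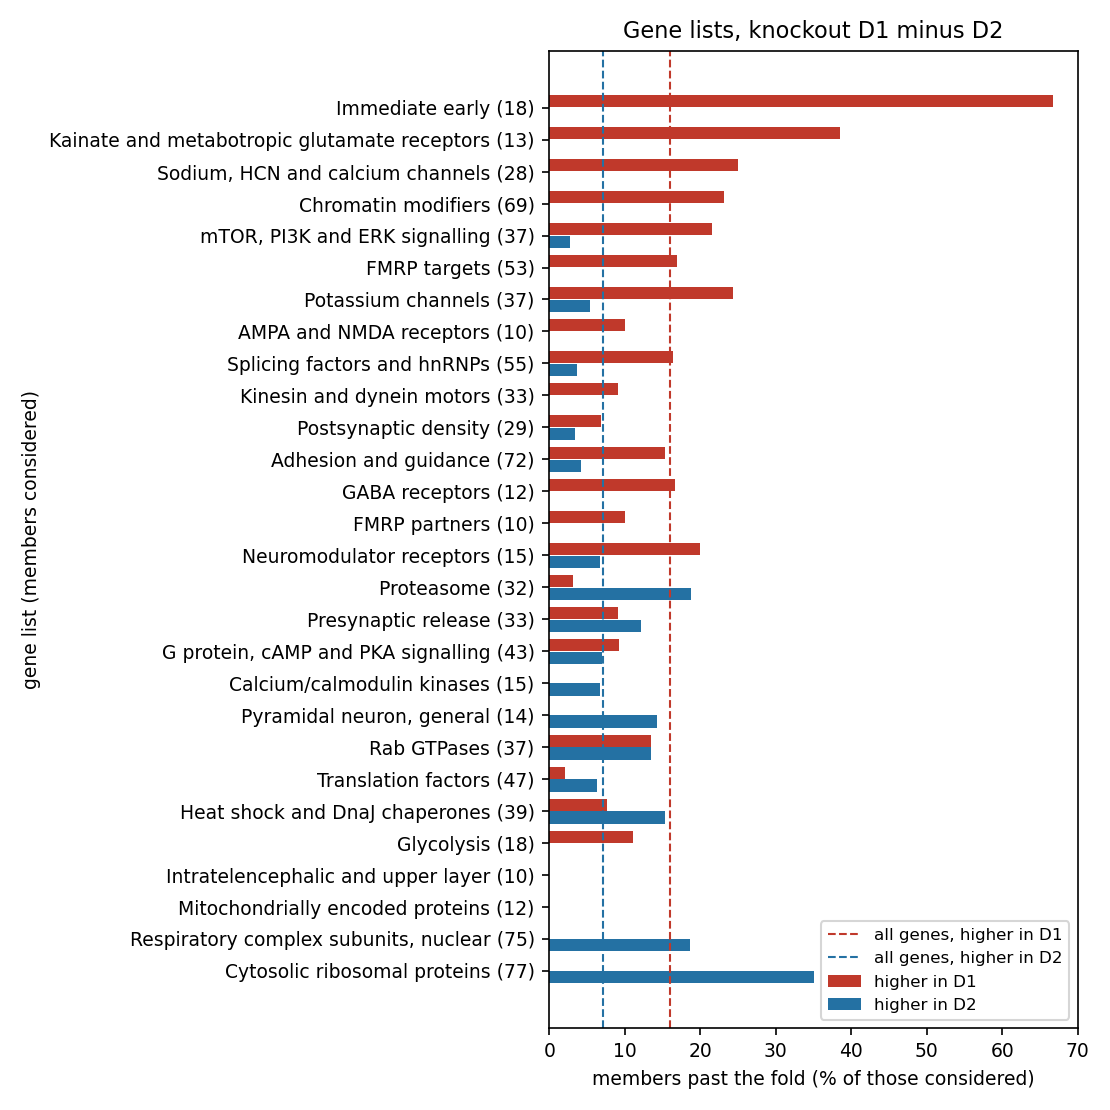
Share of the considered members of each gene list past the fold toward D1 (red, upper bar) and toward D2 (blue, lower bar), for lists with at least 10 members considered (numbers in parentheses), ordered by median difference. Dashed lines mark the shares over all genes, 16% and 7.08%, and immediate early genes reach farthest toward D1 (66.7%) and ribosomal proteins toward D2 (35.1%).

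Presynaptic genes were divided. Sv2a (-4.09) and Cplx1 (-4.17), a vesicle glycoprotein and a regulator of SNARE fusion, and Sncb (-2.33), beta-synuclein, were among the 4 (12.1%) past the fold toward D2. Unc13b (4.55), a priming factor, Syt7 and Syt4 were past it toward D1 (9.09%), among 33 considered, against 5.44% and 17.3% for genes of like length. Sncb had 1.07 to 21.2 CPM in D1 cells and 17.9 to 86.7 CPM in D2 cells, and only D1 cells 5 and 6 exceeded the lowest D2 cell. Camk2n1, an inhibitor of CaM kinase II, had 13.5 to 148 CPM in D1 cells (median 58.3) and 34.8 to 644 CPM in D2 cells (median 333), a difference of -2.37. Adhesion and guidance genes were at or below the background, with 11 of 72 (15.3%) past the fold toward D1, among them Tenm2 (3.41), and 3 (4.17%) toward D2, against 20.4% and 4.11% for genes of like length. Among these last, Sema3e, a repulsive cue, had no read in D1 cells and reads in 4 of 7 D2 cells.

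Marker genes of the layer 5 neurons of the pyramidal tract stood lower in D1 cells, as in the wild-type. Of 9 considered, 8 lay below 0 and 2 (22.2%) were past the fold toward D2, against 6.26% for genes of like length. Their median was -1.62 in the knockout and -1.49 in wild-type cells, against 0.50 for knockout genes of like length, and it was -1.05 without D2 cell 3 and -0.89 without D2 cell 4. Bcl11b, the factor CTIP2 that defines these neurons, had reads in D1 cells 3 and 5, at 87.2 and 81.0 CPM, and in D2 cells 3 to 7, at 300, 126, 502, 288 and 87.2 CPM, a difference of -3.41. Sulf2 differed by -2.13, and Fezf2, the upstream factor of these neurons, by 0.25. Markers of intratelencephalic neurons gave 0 of 10 past the fold in either direction, against 17.7% toward D1 and 5.01% toward D2 for genes of like length. Their median also lay below 0, at -0.61 against 0.65 for genes of like length, with 6 of the 10 below 0. The sign of this median changed under 5 of 27 alternatives.

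Markers of inhibitory neurons moved with the D2 label in part. Of 16 on the list, 5 were considered, and Reln (-2.96), Gad1 (-2.36) and Gad2 (-2.35) were past the fold toward D2 (60%, against 7.76% for genes of like length). The median over the 5 was -2.35. Under a stricter filter on low values only Cck remained of them, at 0.59, so that value says nothing of the others. Gad1, the main GABA-synthesising enzyme, had 0.857 CPM in D1 cell 3 and none in the other D1 cells, and 44.1, 29.8, 0.908 and 72.7 CPM in D2 cells 2, 4, 6 and 7. Reads came from 1 or 2 of the 16 markers in each D1 cell and from 1 to 8 in each D2 cell, and the summed level, carried mostly by Cck, was 107 to 1698 CPM in D1 and 0.654 to 4715 CPM in D2 cells. Dlx2, Dlx5, Vip and Htr3a had no read in any of the 13 cells. Oligodendrocyte markers summed to 0 to 2476 CPM in D1 cells and 99.4 to 11094 CPM in D2 cells, highest in D2 cell 5, where Mobp had 3730 CPM, and astrocyte markers to 286 to 2051 CPM in D1 and 151 to 3227 CPM in D2 cells. The part of these transcripts in the differences above was not tested. Without D2 cells 5 and 7 together, the immediate early list had 10 members past the fold toward D1, the ribosomal list 25 toward D2 and the respiratory list 24 toward D2.

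Of 12 genes chosen for their difference between wild-type D1 and D2 cells, 3 were past the fold in the same direction in the knockout. Over all genes considered in the knockout, 16% were past the fold toward D1 and 7.08% toward D2. Of wild-type genes past the fold, 8.42% toward D1 and 13.1% toward D2 were past it in the same direction in the knockout. Smox, spermine oxidase, was higher in D1 cells at 2.56 in the knockout and 3.55 in the wild-type, Bcl11b was lower at -3.41 and -3.08, and Sorcs1, a sorting receptor, was lower at -2.41 and -2.73. Reep1, which shapes the endoplasmic reticulum, was past the fold in opposite directions, at 4.41 in the knockout and -2.89 in the wild-type. Its knockout values were 62.6, 21.6, 360, 224, 731 and 285 CPM in D1 cells and 26.4, 28.1, 32.3, 0, 0, 0 and 77.4 CPM in D2 cells. C1qa, Camk2d, Il1rapl2, Pmm1, Npr3, Fgf9, Neto1 and Arhgap5 were not past the fold in the knockout, between -1.83 and 1.91.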

How the data were processed

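Nextera XT libraries were made from the cytosol of single neurons, per the labels' protocols. The submitters' processing notes name STAR, Trimmomatic and featureCounts and the GRCm38 build, without versions or settings in the sources used here. The authors deposited whole-number read counts per gene. A second table that the authors deposited, with normalized signal for 14067 symbols, was found to be the counts times 1 factor per cell (0.420 to 2.15 in the 13 knockout cells). Columns matching no sample (2 per table) were not used. CPM were computed from each cell's total over genes, with a pseudocount of 1 CPM. Cells were grouped by their labels, and TMM factors (edgeR) served only as an alternative scaling. No p-value was computed.

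The genes named are the 15 per direction with the largest smallest leave-one-out difference (mitochondrial, ribosomal RNA and predicted genes passed over), Fmr1 and its paralogs, Drd1 to Drd5, 12 genes of the wild-type comparison, up to 4 per described list of 39, and the members of the lists described. The members, lists and genes were chosen with earlier results of these data known, so that no list is independent evidence. Shares and summed counts carry exact intervals at 95%, and a group without reads was given a floor of 3 counts. Genes of like length are those between the quartiles of a list's exon lengths in GENCODE vM21, the build of the files. Promoter windows came from RefSeq (GRCm38.p6). Values of some list members are not reported here. The procedure was tested on simulated data. Alternatives were the pseudocount, the scaling, the filter, thinned counts, the Ensembl table, and leaving out cells. Python 3.11.15, numpy 2.4.6, pandas 2.3.3, scipy 1.17.1 and matplotlib 3.10.9 were used.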

Additional observations from a re-analysis of the deposited data

Results flagged for a closer look

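Of 72 groups of cell values checked for a cell far from the others of its group, 29 held one. A chance rate of about 1 in 20 cannot be set against this number. The leading genes checked were chosen on these same values, and many had no read in most cells of a group. In 10 of the 29 groups all other cells had no read, so that a single cell carried the group's level. D2 cell 5 had reads of only 2904 genes, and in D1 cell 6 genes of at least 6000 exon bases took only 35.9% of nuclear counts.

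On the log2(CPM + 1) scale, some D2 cells stood above the rest of their group in genes that were higher in D1 cells. D2 cell 1 did so in Ikbkb (5.35), D2 cell 2 in Asxl1 (3.39) and Capn10 (5.98), and D2 cell 3 in Dusp11 (6.61), Taf2 (5.29) and Epb41l4b (7.32). D2 cell 4 did so in Pou2f1 (4.98) and Pitpnm3 (7.73), D2 cell 5 in Mapkapk2 (6.73) and D2 cell 7 in Dhx16 (0.45). D1 cell 3 stood below the other D1 cells in Pou2f1 (0.28) and Mapkapk2 (2.15).

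Among genes that were higher in D2 cells, D1 cell 1 stood above the other D1 cells in Chmp1a (7.80) and Mrps11 (5.91). D1 cell 2 did so in Nudt4 (6.64), Mrpl50 (0.33), Bod1 (6.09) and Mtfr1l (7.15), and D1 cell 6 in Ebna1bp2 (7.63) and Gng10 (6.52). Below the other D2 cells stood D2 cell 7 in Rpl7a (0), Chmp1a (0) and Ebna1bp2 (2.91), D2 cell 5 in Lgi2 (0) and Gng10 (0), D2 cell 4 in Bod1 (0) and D2 cell 3 in Nap1l4 (1.66).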

How the results depend on the processing

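None of the 30 leading genes changed direction under an alternative that was run. They were chosen by their smallest leave-one-out difference, so that leaving out a cell could not turn them. Of 39 medians (38 lists and all genes), 17 kept their sign under every alternative that gave a value, among them those of the immediate early, ribosomal, respiratory, mitochondrially encoded, pyramidal tract, channel, glutamate receptor, FMRP target, chromatin and mTOR lists. The other 22 did not, and the median over all genes was -0.17 with the cell that failed quality control. The number of genes past the fold toward D1 (1466) was 396 with a pseudocount of 10 CPM and 820 with the cell that failed quality control added. The number toward D2 (648) was 974 with a pseudocount of 0.1 CPM, 107 with 10 CPM and 1128 without D2 cells 5 and 7 together, a setting chosen after seeing the data. Under TMM factors 1093 of the 1466 genes toward D1 and 645 of the 648 toward D2 were called again. The 13 genes without overlap became 32 in cells of 32 days only, 2 with the failed cell added and 35 without D2 cells 5 and 7. The respiratory genes past the fold toward D2 (14) were 9 with a pseudocount of 10 CPM, 23 under TMM factors, 26 in the authors' normalized table, 32 with the failed cell and 24 without D2 cells 5 and 7. The ribosomal protein genes (27) were 10 with a pseudocount of 10 CPM and 17 by the ratio of summed counts. The immediate early genes past the fold (12) were 9 with a pseudocount of 10 CPM. The cause of these moves was not tested.

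As each cell was left out, the counts ranged from 1174 to 1763 genes toward D1, 567 to 919 toward D2, 16 to 33 without overlap, 11 to 12 immediate early, 15 to 33 ribosomal and 8 to 23 respiratory genes. Groups of fewer cells overlap less easily. The pyramidal tract median ranged from -1.89 to -0.89 and the median over all genes from 0.04 to 0.65. No paired analysis was possible because the replicate numbers only name the cells and no animal is given. Reads of 6 and 7 cells limit what can be seen of genes with few reads.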

Other observations

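The 1 knockout cell labelled D1 whose quality control had failed held 950010 counts in 995 genes, with 59.5% of them in the ribosomal RNA gene Rn18s. It had no read of Arc, Egr4, Homer1, Mkx or Rpl7a, and 57.9 CPM of Rps3. It also had 353 CPM of Fos, above every D2 cell, and 895 CPM of Taf2, above every D1 cell that passed.

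Among lists not described above, 15 neuromodulator receptor genes held 3 past the fold toward D1 (20%) and 1 toward D2 (6.67%), near the 17.2% and 6.41% of genes of like length. Crhr1, the receptor of corticotropin-releasing hormone, had 67.7, 215 and 683 CPM in D1 cells 1, 2 and 5 and at most 0.525 CPM in D2 cells, a difference of 3.73. Npy1r (2.60) and Htr1b (2.59), receptors of neuropeptide Y and serotonin, were also past the fold toward D1, and Adora1, an adenosine receptor, toward D2 (-2.12). Of 18 glycolytic genes, 2 (11.1%) were past the fold toward D1, against 16.5% for genes of like length. They were Pfkl (4.07), which encodes a phosphofructokinase, and Slc2a1. Slc2a1 had 213 CPM in D1 cell 6 and at most 21.8 CPM in the other cells. Of the 18 genes, 13 stood below 0, at a median of -0.47 that ranged from -0.89 to -0.21 as each cell was left out. Rab GTPases had 5 of 37 past the fold in each direction (13.5%, against 16.4% toward D1 and 6.78% toward D2 for genes of like length). Chaperones had 3 of 39 toward D1 (7.69%, against 16.6%), with Dnajc6 (3.20), which uncoats clathrin vesicles, and 6 toward D2 (15.4%, against 6.55%), with Hspa9 (-2.76), the mitochondrial chaperone mortalin.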
